A study of Mus musculus with 6 samples.

Results

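Tlr4, which encodes the receptor for bacterial lipopolysaccharide, was set beside 9 other genes of Toll-like receptor signalling. The 10 genes are the receptors Tlr4, Tlr2 and Tlr3, the co-receptors Cd14 and Ly96, the adaptors Myd88, Ticam1 and Tirap, the kinase Irak1 and the ubiquitin ligase Traf6. They were taken by gene name from the 55401 genes in the tables, and each name matched 1 gene. Tlr4 was included because it was already known to be higher under IPRN in these libraries, so its difference is given as a description, and the counts of called genes are over the other 9. The comparison asked whether the rise of Tlr4 was shared by the other receptors, co-receptors or adaptors.

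The cells were NIH3T3, an immortalised line of mouse embryonic fibroblasts, labelled wild type in genotype and embryo in tissue. Messenger RNA was sequenced from 3 libraries of cells given DMSO, the vehicle, and 3 libraries of cells given IPRN, with no other group. The series title names angelicin, a furanocoumarin found in plants, and the design text names hydrogen peroxide and TGF-β as stimuli used to model cancer-associated fibroblasts. No dose or time is stated in the labels, and they leave unsaid whether the DMSO cells were given the stimuli. They also leave unsaid whether the libraries of a group were separate cultures, so the p-values reflect only how far the libraries of a group lie apart, and that distance may be technical.

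As background, Toll-like receptors recognise microbial molecules and some molecules released by damaged tissue. TLR4 binds lipopolysaccharide through MD-2, the product of Ly96, after CD14 has passed the lipid on. The receptor then recruits TIRAP and MYD88, which engage IRAK kinases and TRAF6, or it recruits TRIF, the product of Ticam1, through TRAM, the product of Ticam2. Both routes lead to NF-κB, MAP kinases and interferon regulatory factors, and fibroblasts answer the ligand mainly with cytokines and chemokines.

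Total counts per library ran from 60320282 to 78629444. Levels are given as CPM, counts scaled to the TMM-normalised library size, and 3 counts, the floor used here, correspond to 0.0382 to 0.0497 CPM. Fibroblast markers summed to between 22860 and 27810 CPM in every library. Libraries differed in transcripts of other cells. The 12 macrophage and monocyte markers summed to 3.46, 13.7 and 16.3 CPM in DMSO 1, 2 and 3 and to 16.7, 17.3 and 140.5 CPM in IPRN 1, 2 and 3, and 11 of the 12 were highest in IPRN 3. Of these markers, Adgre1, Itgam, Tyrobp, Aif1, C1qa and C1qb were at 0 in DMSO 1. Lyz2 alone, at 98.0 CPM, made up most of the macrophage and monocyte sum in IPRN 3. Hepatocyte markers summed to 4.08, 51.7 and 31.3 CPM in DMSO and to 97.7, 34.5 and 3.88 CPM in IPRN, so DMSO 1 and IPRN 3 were the lowest of their groups. Lymphocyte markers stayed at or under 0.165 CPM. Since macrophages express many genes of this pathway, the values of Cd14, Tlr8, Cd36, Unc93b1, Saa3 and Stab1, in which IPRN 3 stands apart from IPRN 1 and 2, are also given without that library.

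Tlr4 was at 4.58, 4.82 and 4.42 CPM in DMSO 1, 2 and 3 and at 24.6, 24.9 and 25.6 CPM in IPRN 1, 2 and 3. The libraries within a group lay close together, and the lowest IPRN library was far above the highest DMSO library. The means were 4.61 ± 0.202 (SD, n = 3) and 25.1 ± 0.519 (SD, n = 3) CPM, a 5.44-fold difference, or 2.44 on the log2 scale. The counts behind these values were 275, 351 and 347 in DMSO and 1755, 1859 and 1651 in IPRN. Only 49 of the 17159 genes that passed the expression filter (0.286%) had a fitted log2 fold change at least as large. Leaving out any 1 library gave log2 differences between 2.41 and 2.48. IPRN 1 and 2, with fewer macrophage transcripts than IPRN 3, had nearly the same Tlr4 level as that library. The part of macrophage transcripts in the Tlr4 level was not tested. In bulk RNA, a change in the number of cells that carry a transcript and a change in the amount per cell cannot be told apart.

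The gene lies at chr4:66827584-66930284 on the plus strand of GRCm38, and none of its exons overlaps those of another gene model. Wholly within 1 Mb on either side there were 6 other gene models, 0 of them protein-coding. Of these, 5 had no counts in any library and 0 passed the expression filter. Gene models that cross an edge of this window were not counted.

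**Figure D1:**
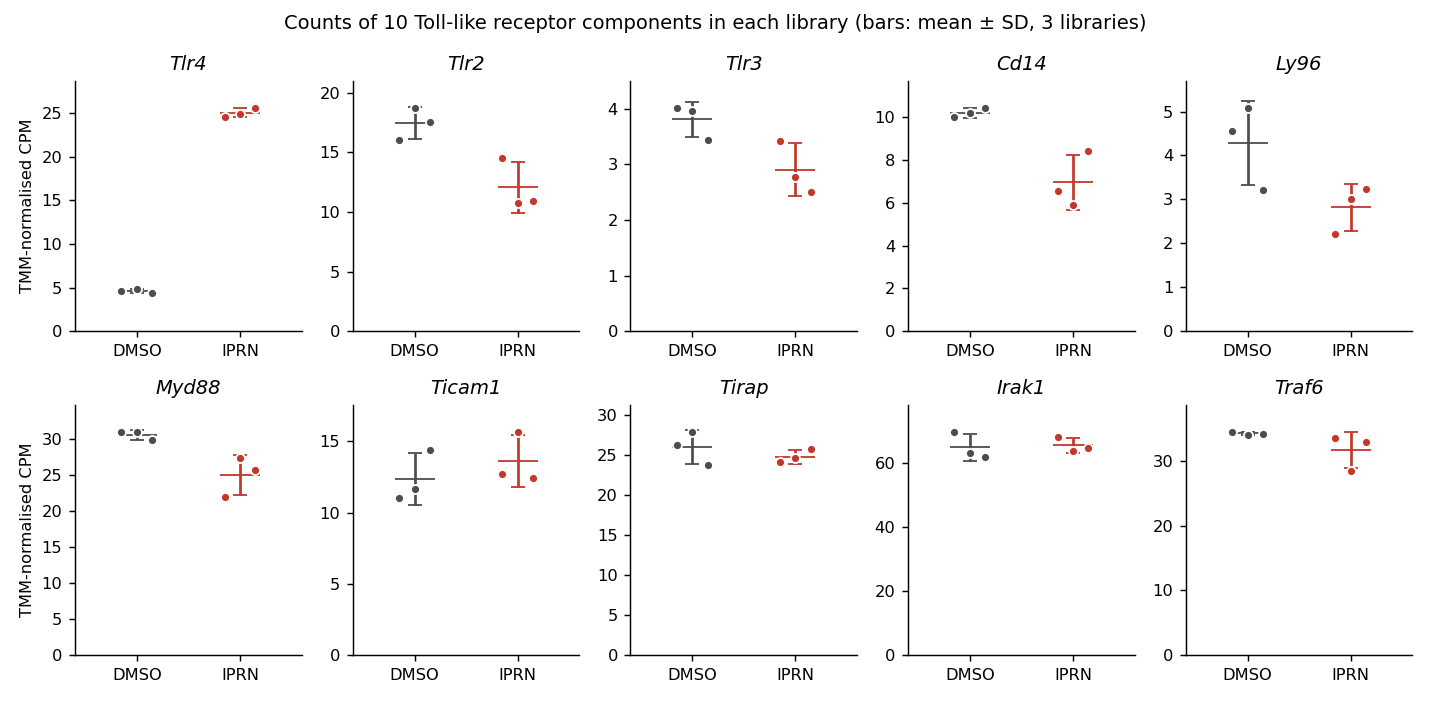
Level of each of the 10 genes in every library (TMM-normalised CPM, 1 panel and scale per gene, each from 0), with a point per library and bars for the mean ± SD of 3 libraries. Tlr4 moves from 4.61 to 25.1 CPM, while in the other 9 panels the means of DMSO and IPRN differ by at most 1.52-fold.

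None of the other 9 genes was called higher. At a Benjamini-Hochberg adjusted p under 0.05, edgeR's quasi-likelihood test called 0 of the 9, against 5.47% of all genes tested in either direction, 2.46% higher and 3.01% lower. At an unadjusted p under 0.05, 4 of the 9 were lower, against 10.8% of all genes tested. DESeq2 called 2 of the 9 lower, Tlr2 and Cd14, and 0 higher, against 8.78% lower and 9.26% higher of the genes for which it gave an adjusted p. The median log2 fold change of the 9 was −0.29 against 0.0016 for all genes tested by edgeR, and 7 of the 9 were negative. For Tlr2, Tlr3, Cd14, Myd88 and Traf6, 5 of the 9, every IPRN library was lower than every DMSO library, as for 14.7% of all genes tested. The reverse held for 0 of the 9, against 14.9%.

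Tlr2, the receptor for bacterial lipoproteins, was at 16.1, 18.7 and 17.5 CPM in DMSO and at 14.5, 10.8 and 10.9 CPM in IPRN. IPRN 1 stood nearer to the DMSO libraries than the other 2 did. The means of 17.5 ± 1.33 and 12.1 ± 2.14 CPM (SD, n = 3 each) gave a log2 fold change of −0.53 with an SE of 0.141 and an edgeR adjusted p of 0.0805. Without IPRN 1 the log2 fold change was −0.69 and the edgeR adjusted p 0.0232. With any other library left out instead, the edgeR adjusted p was 0.161 to 0.242. DESeq2 gave an adjusted p of 0.00906 on all libraries. The gene lies at chr3:83836272-83841767 on the minus strand.

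Tlr3, which detects double-stranded RNA in endosomes, was at 4.01, 3.96 and 3.44 CPM in DMSO and at 3.42, 2.78 and 2.50 CPM in IPRN. The highest IPRN library lay just under the lowest DMSO library. Its log2 fold change of −0.39 had a 95% interval from −0.81 to 0.03 and an edgeR adjusted p of 0.263. Tlr3 spans chr8:45395665-45411080 on the minus strand and shares exon sequence with the antisense model Gm45542, which had no counts.

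Both co-receptors had lower means under IPRN, and neither passed the test with all libraries. Cd14, which binds lipopolysaccharide at the cell surface, was at 9.99, 10.2 and 10.4 CPM in DMSO and at 6.56, 5.90 and 8.40 CPM in IPRN. The 3 DMSO libraries were nearly equal, and IPRN 3, the library with the most macrophage transcripts, was the highest of the IPRN libraries. The log2 fold change was −0.55 with an SE of 0.145, and the edgeR adjusted p was 0.0790. Without IPRN 3 it was −0.71 with an edgeR adjusted p of 0.0502. With any other library left out instead, the edgeR adjusted p was 0.145 to 0.213. DESeq2 gave an adjusted p of 0.0144 on all libraries. CD14 is itself abundant in monocytes, and the part of the macrophage transcripts of IPRN 3 in this value was not tested.

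Ly96, which encodes the MD-2 subunit that completes the lipopolysaccharide pocket of TLR4, was at 4.56, 5.08 and 3.23 CPM in DMSO and at 2.22, 3.0 and 3.23 CPM in IPRN. DMSO 3 and IPRN 3 had the same level, so the groups met. The means were 4.29 ± 0.959 and 2.82 ± 0.532 CPM (SD, n = 3 each), a log2 fold change of −0.61 with a 95% interval from −1.16 to −0.05 and an edgeR adjusted p of 0.188. Cd14 lies at chr18:36725067-36726798 on the minus strand and Ly96 at chr1:16688051-16709611 on the plus strand.

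Among the adaptors, Myd88, used by most Toll-like receptors, was at 31.0, 31.1 and 29.9 CPM in DMSO and at 22, 27.4 and 25.8 CPM in IPRN. All IPRN libraries were lower, by an amount that differed between them. The log2 fold change was −0.29 with an SE of 0.0963 and an edgeR adjusted p of 0.136. Myd88, at chr9:119335934-119340041 on the minus strand, shares exon sequence with Acaa1a, and reads from the overlap could not be assigned by strand.

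Ticam1 encodes TRIF, the adaptor of TLR3 and of the endosomal branch of TLR4. It was at 11, 11.7 and 14.4 CPM in DMSO and at 12.7, 15.7 and 12.5 CPM in IPRN, with overlapping groups. The log2 fold change of 0.14 (edgeR adjusted p = 0.655) had the highest upper bound of the 9 genes, and the 95% interval ended at a 1.40-fold rise. Tirap, which brings MYD88 to TLR2 and TLR4 at the plasma membrane, was at 26.3, 28 and 23.8 CPM in DMSO and at 24.1, 24.6 and 25.8 CPM in IPRN. These groups overlapped as well, with a log2 fold change of −0.07 (95% interval −0.27 to 0.14, edgeR adjusted p = 0.732). Ticam1 lies at chr17:56269319-56276786 and Tirap at chr9:35184551-35200291, both on the minus strand, and Tirap shares exon sequence with Srpr and Gm39318.

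Irak1, a kinase recruited by MYD88, had the highest level of the 10 genes. It was at 69.8, 63.0 and 61.9 CPM in DMSO and at 68.1, 63.7 and 64.8 CPM in IPRN, so the groups covered the same range. The log2 fold change was 0.01 (95% interval −0.14 to 0.17, edgeR adjusted p = 0.941), and its sign turned when DMSO 2, DMSO 3 or IPRN 1 was left out. Traf6, the ubiquitin ligase that acts after IRAK1, was at 34.6, 34.0 and 34.2 CPM in DMSO and at 33.6, 28.5 and 32.9 CPM in IPRN. The DMSO libraries were nearly equal and all above the IPRN libraries, but the distance was small, with a log2 fold change of −0.11 (95% interval −0.31 to 0.08, edgeR adjusted p = 0.501). Irak1 lies at X:74013914-74023918 on the minus strand and holds the microRNA genes Mir5132 and Mir718 in its exons, and Traf6 lies at chr2:101678429-101701669 on the plus strand.

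**Figure D2:**
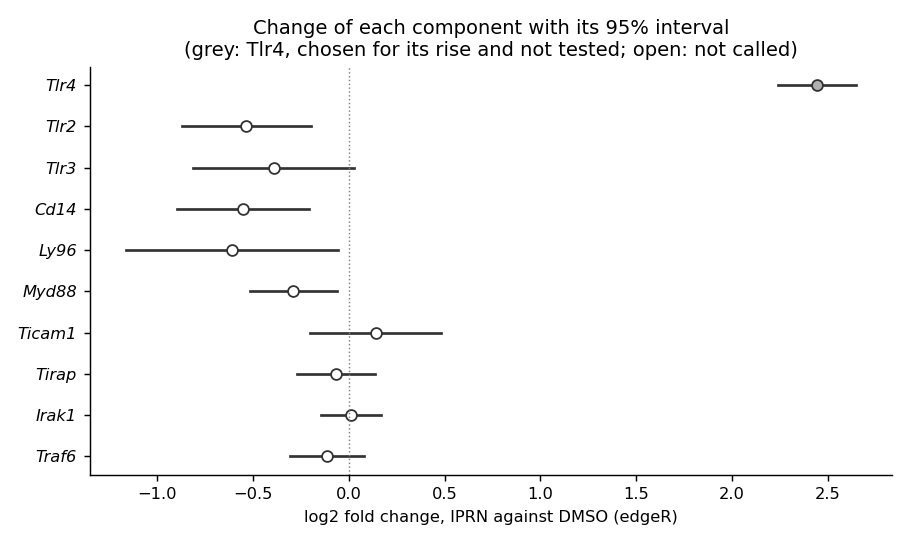
Log2 fold change of IPRN over DMSO for each of the 10 genes (horizontal axis, edgeR), with the 95% interval as a line. The grey point is Tlr4, which was chosen for its rise, so its test result is set aside. Tlr4 stands at 2.44, and the intervals of the other 9 genes end at or below a 1.40-fold rise.

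Levels of different genes were compared on the deposited FPKM scale, which divides by gene length. In DMSO, Tlr4 took the ninth place of the 10 at 0.740 ± 0.0335 FPKM (SD, n = 3), with Tlr3 below it at 0.652 ± 0.0546 FPKM. Irak1 at 12.3 ± 0.815 FPKM and Myd88 at 10.7 ± 0.260 FPKM were the highest. Cd14 was at 5.28 ± 0.107, Tlr2 at 5.20 ± 0.405, Tirap at 4.73 ± 0.396, Traf6 at 3.90 ± 0.0294, Ly96 at 3.76 ± 0.849 and Ticam1 at 3.71 ± 0.538 FPKM. The libraries of Cd14 and Tlr2, of Tlr2 and Tirap, of Traf6 and Ly96, and of Ly96 and Ticam1 overlapped.

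In IPRN, Tlr4 took the fifth place at 4.06 ± 0.145 FPKM, in a group of genes with similar levels. Its libraries overlapped those of Ticam1, the next gene above, at 4.10 ± 0.557 FPKM. Below it were Traf6 at 3.61 ± 0.300, Cd14 at 3.61 ± 0.712, Tlr2 at 3.59 ± 0.578, Ly96 at 2.48 ± 0.499 and Tlr3 at 0.496 ± 0.0735 FPKM. Irak1 at 12.5 ± 0.270, Myd88 at 8.77 ± 1.08 and Tirap at 4.53 ± 0.229 FPKM stood above both. Neighbours with overlapping libraries were Tirap and Ticam1, Ticam1 and Tlr4, Traf6 and Cd14, and Cd14 and Tlr2. The range of Tlr4 also overlapped those of Cd14 and Tlr2, which are not its neighbours in the order.

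**Figure D3:**
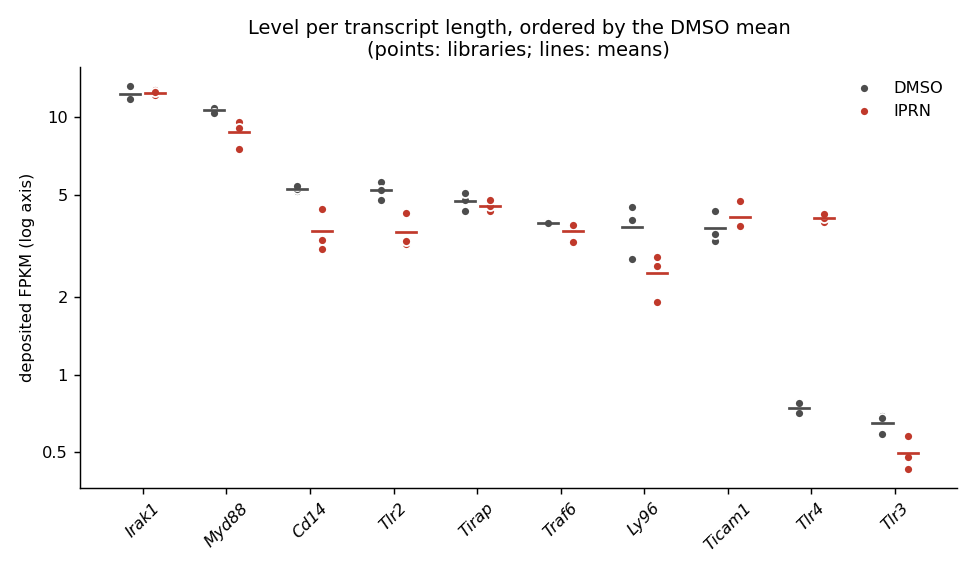
Level per gene length (deposited FPKM, logarithmic axis) of the 10 genes, with a point per DMSO or IPRN library and a line at each mean. Tlr4 moves from 0.740 to 4.06 FPKM and from the ninth to the fifth place, next to Ticam1 at 4.10 FPKM.

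The proportion of Tlr4 to its partners therefore differed between the groups, as a description that follows from the rise of Tlr4. The ratio of Tlr4 to Ly96 on the FPKM scale was 0.184, 0.174 and 0.252 in DMSO and 2.05, 1.53 and 1.47 in IPRN. On this scale the level of Tlr4 was thus below that of Ly96 in each DMSO library and above it in each IPRN library. The ratios depend on the gene lengths behind the FPKM values, so they do not give relative numbers of transcripts. The ratio of Tlr4 to Cd14 was 0.142, 0.147 and 0.132 in DMSO and 1.17, 1.32 and 0.952 in IPRN, and that to Tlr2 was 0.153, 0.139 and 0.136 in DMSO and 0.919, 1.26 and 1.28 in IPRN. Both ratios were thus far below 1 in DMSO and on either side of 1 in IPRN. Protein and surface levels were not measured.

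Beyond the 10 genes, 74 further genes of the pathway were listed by role, and 68 passed the expression filter. edgeR called 1 of the 68 higher and 8 lower, against 2.46% and 3.01% of all genes tested, and their median log2 fold change was −0.03. The lists were drawn up with earlier results of these libraries known, so the counts are descriptions. Of 10 other receptor genes 6 were tested, 0 were called, and Tlr5, Tlr11 and Tlr12 had no counts in any library. Tlr7, a receptor for single-stranded RNA, was at 0.899, 1.42 and 0.982 CPM in DMSO and at 0.575, 0.389 and 0.963 CPM in IPRN (edgeR adjusted p = 0.353). Tlr1, a partner of TLR2, was at 1.28, 0.660 and 0.344 CPM in DMSO and at 0.224, 0.563 and 0.326 CPM in IPRN (edgeR adjusted p = 0.400). Both were low, and their groups overlapped. Tlr8, another receptor for single-stranded RNA, had counts of 0, 13 and 15 in DMSO and 12, 9 and 62 in IPRN, with the highest in IPRN 3. Its log2 fold change was 1.72 (edgeR adjusted p = 0.505), and 0.21 (0.961) without IPRN 3.

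One adaptor rose. Sarm1, an adaptor with a TIR domain that also acts as an NAD hydrolase in neurons, was at 2.85, 3.37 and 3.45 CPM in DMSO and at 5.71, 5.58 and 4.91 CPM in IPRN. This 1.67-fold rise had an edgeR adjusted p of 0.0362, and the adjusted p lay between 0.0672 and 0.137 when any 1 library was left out. Ticam2, which encodes the TRAM adaptor that TLR4 needs to reach TRIF, was not tested and was at 0, 0 and 0.102 CPM in DMSO and 0, 0 and 0.124 CPM in IPRN. It was therefore at or near the floor in all 6 libraries.

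Among the genes that carry receptors or ligands, 8 of 9 were tested, with 0 called higher and 1 lower, where 3.01% of all genes tested were lower. Hsp90b1, which encodes the chaperone GRP94 that folds Toll-like receptors, fell from 1457 ± 49.7 to 1113 ± 32.6 CPM (SD, n = 3 each), 1.31-fold lower (edgeR adjusted p = 0.00887). That call did not hold without DMSO 1 (edgeR adjusted p = 0.0588) or DMSO 2 (0.0580), and the gene shares exon sequence with other models. Cd36 and Unc93b1, both expressed by macrophages, were highest in IPRN 3 at 7.72 and 1.29 CPM, against at most 2.54 and 0.523 CPM in the other libraries. Their log2 fold changes were 1.21 and 1.55 (edgeR adjusted p = 0.486 and 0.509), and 0.07 and 0.75 (0.976 and 0.824) without IPRN 3.

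Of 6 genes for proteins reported to bind TLR4 from within the tissue, 0 were called, against 5.47% of all genes tested. Tnc, the matrix protein tenascin-C, was at 408, 394 and 413 CPM in DMSO and at 523, 457 and 476 CPM in IPRN. It was 1.20-fold higher with an edgeR adjusted p of 0.0557. Bgn, the proteoglycan biglycan, had means of 2414 ± 54.9 and 2976 ± 329 CPM (SD, n = 3 each), 1.23-fold higher with an edgeR adjusted p of 0.0767. Every IPRN library was above every DMSO library for 2 of the 6, Tnc and Bgn, against 14.9% of all genes tested. Of the 16 alternative analyses described below, 5 called Tnc higher and 2 called Bgn higher.

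In the complex that forms around TRAF6, 1 of 15 genes was called, and it was lower, where 5.47% of all genes tested were called in either direction. Peli2, a ubiquitin ligase that binds IRAK proteins, fell from 27.8 ± 1.97 to 21.4 ± 0.650 CPM (edgeR adjusted p = 0.0489), and its adjusted p was 0.0645 to 0.170 with any 1 library left out. It shares exon sequence with Gm6498. Of the IκB kinases, TBK1 and transcription factors, 1 of 10 was called, against the same 5.47%. The median log2 fold change of the 10 was 0.099. Every IPRN library was above every DMSO library for 4 of the 10 and below for 3, against 14.9% and 14.7% of all genes tested. The called gene was Chuk, the IKKα subunit, which fell from 105 ± 1.16 to 89.9 ± 2.92 CPM, 1.17-fold lower (edgeR adjusted p = 0.0410). In the MAP kinase arm 1 of 8 was called, against the same 5.47%. This was Map3k8, the kinase that activates ERK after Toll-like receptors. It fell from 7.37 ± 0.530 to 4.2 ± 0.268 CPM, 1.75-fold lower (edgeR adjusted p = 0.0181). With 1 library left out, Chuk and Map3k8 were called only without IPRN 1, and their adjusted p ran from 0.0949 to 0.156 and from 0.0592 to 0.0943 otherwise.

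Among 13 negative regulators of the pathway, edgeR called 4 lower and 0 higher, against 3.01% and 2.46% of all genes tested. Atf3, a transcription factor that represses inflammatory genes after Toll-like receptor activation, was at 12.6, 13.2 and 12.4 CPM in DMSO and at 3.04, 3.10 and 3.35 CPM in IPRN. The groups stood far apart, at 4.02-fold, with an edgeR adjusted p of 0.000194. Il1rl1, the receptor for interleukin-33 that can restrain MYD88 signalling, was at 1653, 1661 and 1646 CPM in DMSO and at 1139, 1013 and 998 CPM in IPRN (1.58-fold lower, edgeR adjusted p = 0.00285). Dusp1, the phosphatase that switches off p38 and JNK, fell from 26.7 ± 2.93 to 14.9 ± 0.543 CPM, 1.80-fold lower (edgeR adjusted p = 0.00886). These 3 kept their call with any 1 library left out. Without DMSO 1 and IPRN 3 together, Atf3 kept its call, while the edgeR adjusted p was 0.102 for Il1rl1 and 0.111 for Dusp1. Zc3h12a, the RNase that degrades cytokine transcripts, fell from 77.3 ± 2.96 to 64.4 ± 2.55 CPM (edgeR adjusted p = 0.0473), and with 1 library left out was called only without IPRN 1, with adjusted p of 0.116 to 0.152 otherwise. Dusp1 shares exon sequence with Ergic1. Every IPRN library was below every DMSO library for 7 of the 13, against 14.7% of all genes tested. In the other direction, every IPRN library was above every DMSO library for 2 of the 13, against 14.9%. Socs1, an inhibitor of cytokine receptor signalling, had means of 12.8 ± 0.432 and 16.3 ± 1.24 CPM (edgeR adjusted p = 0.0802, DESeq2 0.0183). Tnip1, a partner of the ubiquitin-editing enzyme A20, had means of 23.9 ± 2.05 and 31.3 ± 3.69 CPM (edgeR adjusted p = 0.0965, DESeq2 0.0163).

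**Figure D4:**
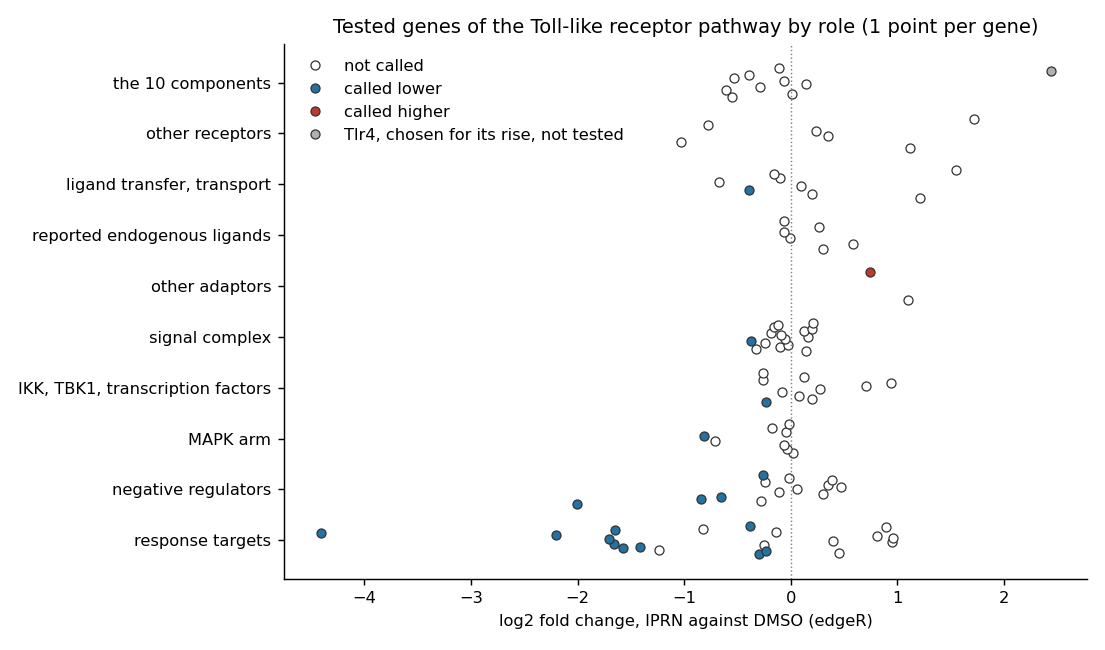
Log2 fold change of IPRN over DMSO (edgeR) for the tested genes of each role in the pathway and for the response targets, 1 point per gene, with coloured points for called genes and a grey one for Tlr4, chosen for its rise. Apart from Tlr4, Sarm1 is the 1 called gene above 0, and the 10 called targets lie below 0.

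Of 22 genes that lipopolysaccharide is known to induce, Il6, Cxcl1, Cxcl5, Ptgs2 and Lif fell by 2.67-fold to 4.59-fold under IPRN, while Tnf and Il1b were at most 0.469 CPM in every library. In all, 20 were tested, 0 were called higher and 10 lower, against 2.46% and 3.01% of all genes tested, with a median log2 fold change of −0.34. These genes also respond to growth factors, stress and other cytokines, and their fall in these libraries was known when the list was made. Il6, the gene of interleukin-6, was at 18.9, 19.5 and 20.7 CPM in DMSO and at 5.43, 6.40 and 6.30 CPM in IPRN. No IPRN library came near the DMSO range, and the difference was 3.26-fold (edgeR adjusted p = 0.000473). Cxcl1, a chemokine for neutrophils, fell from 156 ± 4.10 to 58.5 ± 9.54 CPM (SD, n = 3 each), 2.67-fold lower (edgeR adjusted p = 0.00163).

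The chemokine Cxcl5 fell from 541 ± 27.4 to 171 ± 6.78 CPM, 3.16-fold, with an edgeR adjusted p of 5.30e-05. Ptgs2, the cyclooxygenase of prostaglandin synthesis, was 3.14-fold lower (edgeR adjusted p = 4.64e-05). Lif, which encodes leukaemia inhibitory factor, was 4.59-fold lower (edgeR adjusted p = 1.07e-05). These 3, with Il6 and Cxcl1, kept their call with any 1 library left out. Without DMSO 1 and IPRN 3 together, Cxcl1 alone of the 5 lost it, with an edgeR adjusted p of 0.0699.

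The other 5 calls were less stable. Vcam1, an adhesion molecule, fell from 252 ± 4.83 to 194 ± 2.50 CPM (edgeR adjusted p = 0.00631, and 0.0525 without DMSO 1) and shares exon sequence with Gm43109. The chemokines Ccl2 and Ccl7 fell 1.23-fold and 1.17-fold (edgeR adjusted p = 0.0435 and 0.0468) and with 1 library left out were called only without IPRN 1, with adjusted p of up to 0.160 and 0.171 otherwise. Csf3, the granulocyte growth factor, fell from 3.15 ± 0.286 to 1.06 ± 0.378 CPM (edgeR adjusted p = 0.0380) and had an adjusted p of 0.0502 to 0.137 with any 1 library left out. Mmp13, a collagenase, had counts of 65, 100 and 110 in DMSO and 4, 0 and 8 in IPRN (edgeR adjusted p = 0.0400), and with 1 library left out was called only without IPRN 2, with adjusted p of 0.0551 to 0.148 otherwise.

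The highest fold change among the targets, which edgeR did not call, was that of Irf1, a transcription factor induced by interferons. It was at 14.3, 12 and 7.02 CPM in DMSO and at 22.8, 19.9 and 22 CPM in IPRN. The groups did not overlap, and the 1.94-fold difference had an adjusted p of 0.0726 with edgeR, 0.00105 with DESeq2 and 0.0445 with limma-voom.

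A target outside the 10 called, Saa3, an acute phase gene that macrophages also express, was singled out after its values were seen. It was at 41.8, 45.3 and 46.0 CPM in DMSO and at 14.0, 15.8 and 45.6 CPM in IPRN (edgeR adjusted p = 0.333). IPRN 3, the library rich in macrophage transcripts, was the only IPRN library in the DMSO range. The log2 fold change of Saa3 was −0.82 with all libraries and −1.58 without IPRN 3. The edgeR adjusted p of 0.00282 without IPRN 3 does not allow for the choice of this gene and library by their values. The part of the macrophage transcripts in the level of Saa3 was not tested.

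**Figure D5:**
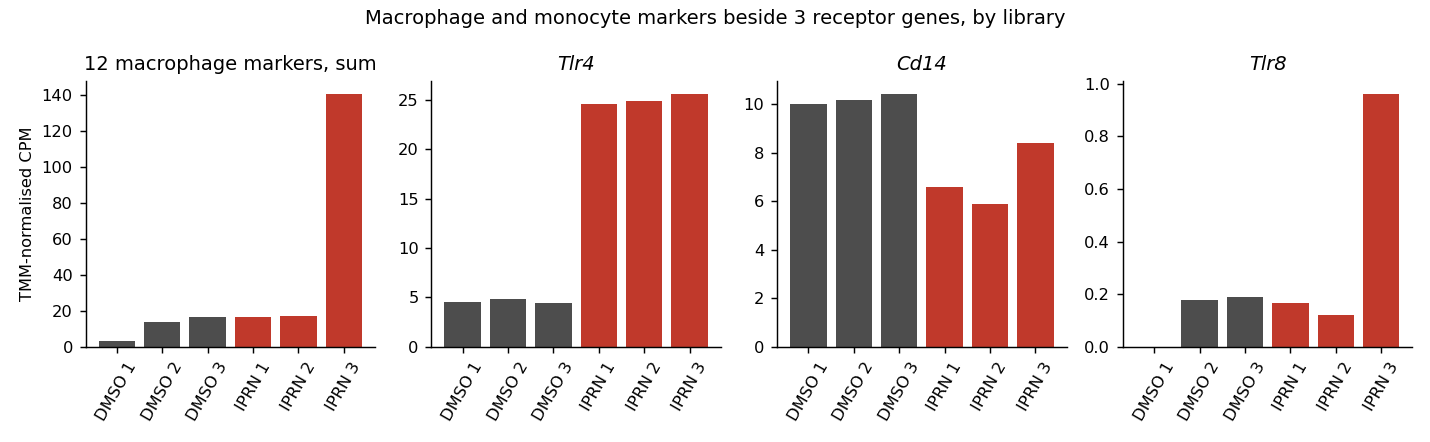
Bars give the sum of 12 macrophage and monocyte markers and the levels of Tlr4, Cd14 and Tlr8 in each library (TMM-normalised CPM, 1 linear axis per panel, from 0). The summed markers reach 140.5 CPM in IPRN 3, of which Lyz2 gives 98.0 CPM, against 17.3 CPM or less elsewhere. Tlr4 is at 24.6, 24.9 and 25.6 CPM in IPRN 1, 2 and 3.

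Promoter sequence was available in the RefSeq table of GRCm38.p6 for 7 of the 10 genes, and for Tlr4, Cd14 and Ly96 the table had no entry. Each entry ran from 250 bases before the start to 50 after it. The window searched for motifs was the 250 bases before the start. The NF-κB consensus was found on either strand in 2 of the 7 (Tlr2 and Tlr3) and in 3.90% of all 32851 promoters. The AP-1 motif TGANTCA was found in 0 of the 7 and in 6.75% of all, and the interferon response motif (GAAA, any 2 bases, GAAA) in 1 of the 7 (Myd88) and in 2.98% of all. Of the 10 called targets, 5 had an entry. The NF-κB, AP-1 and interferon response motifs were found in 2, 3 and 1 of these 5 genes. The stretches that follow lie upstream of the start, where no annotated exon runs, and belong to the members Tlr2 and Myd88, which were not called, and to the targets Il6 and Cxcl1, which fell. Each is written 5′ to 3′ on the strand of the gene, and capitals mark a motif match.
Tlr2, chr3:83841768-83841858, minus strand: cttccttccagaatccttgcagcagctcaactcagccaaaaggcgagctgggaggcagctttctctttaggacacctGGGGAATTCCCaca
Myd88, chr9:119340042-119340268, minus strand: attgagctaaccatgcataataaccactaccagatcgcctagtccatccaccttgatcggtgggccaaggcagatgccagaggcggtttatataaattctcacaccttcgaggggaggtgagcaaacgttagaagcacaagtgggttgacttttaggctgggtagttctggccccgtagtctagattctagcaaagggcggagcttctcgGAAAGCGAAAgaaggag
Il6, chr5:30012864-30013113, plus strand: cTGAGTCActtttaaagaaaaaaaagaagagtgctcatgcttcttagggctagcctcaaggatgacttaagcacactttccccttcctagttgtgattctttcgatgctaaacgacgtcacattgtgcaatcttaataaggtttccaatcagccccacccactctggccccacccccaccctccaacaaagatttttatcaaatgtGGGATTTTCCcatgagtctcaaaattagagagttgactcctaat
Cxcl1, chr5:90890995-90891240, plus strand: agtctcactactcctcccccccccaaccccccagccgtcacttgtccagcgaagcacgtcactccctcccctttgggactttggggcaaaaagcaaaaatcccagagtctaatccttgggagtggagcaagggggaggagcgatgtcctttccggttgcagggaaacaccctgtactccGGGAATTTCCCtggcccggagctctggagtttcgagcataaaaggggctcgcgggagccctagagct
Positions count from the start in the RefSeq entry. For Tlr2, Myd88 and Cxcl1 this start lies inside the gene model, and the printed stretches ended at −160, −24 and −5. The NF-κB matches began at −173 and −172 in Tlr2 (overlapping each other), at −44 in Il6, and at −71 and −70 in Cxcl1 (overlapping, on opposite strands). Il6 also held the AP-1 motif at −249, and Myd88 held the interferon response motif at −40. A match describes the letters in the window and shows no binding.

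The genes most like Tlr4 across the 6 libraries were chosen from 11267 genes (mean level 1 CPM or more) by the Euclidean distance between log2 CPM values centred on the DMSO mean. The 5 nearest with a standard symbol were Csnk1g1, Mcam, Stab1, Pex26 and Gadd45g, at distances from 1.70 to 2.25, and 2 genes without one lay nearer. Of the 5, chosen for their likeness, edgeR called Csnk1g1, Pex26 and Gadd45g higher, but not Mcam (adjusted p = 0.0701) or Stab1 (0.0999). Mcam and Stab1 averaged 0.581 and 0.421 CPM in DMSO. Both of them and Pex26 share exon sequence with other models. Csnk1g1, a casein kinase, had means of 15.1 ± 0.913 and 41.4 ± 3.06 CPM (SD, n = 3 each), a 2.74-fold difference. Stab1, a scavenger receptor found on macrophages, was at 0.200, 0.426 and 0.637 CPM in DMSO and at 1.23, 1.05 and 4.47 CPM in IPRN, highest in IPRN 3. Its log2 fold change was 2.40, and 1.42 without IPRN 3. The likeness is a description of these 6 libraries and was not tested.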

How the data were processed

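Messenger RNA from 3 DMSO and 3 IPRN libraries was sequenced after oligo(dT) capture, fragmentation, random priming and PCR, per the labels' protocols, with no step that marks the strand. The authors deposited 1 table per library with a whole-number count per gene, without normalization, and, per the file headers, an FPKM value scaled by gene length and library size. The submitters' processing notes name cutadapt 1.9. For the aligner, counter, build and annotation, the tool or version is not given in the sources used here. Positions are given on GRCm38, since 51920 of 55141 gene IDs (94.2%) had the same position in GENCODE M21.

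Counts were tested with edgeR 4.0.16 in R 4.3.3: TMM normalization, its expression filter (minimum count of 10), a two-sided quasi-likelihood test on group alone, and Benjamini-Hochberg adjustment over 17159 genes. A gene was called at an adjusted p under 0.05. Standard errors and 95% intervals came from the log2 fold change and F statistic. FPKM served for levels between genes. Counts of replicate pairs differed beyond sampling noise (31.2 to 88.8 as chi-square over its degrees of freedom), which does not show whether the libraries were separate cultures. Each library was kept as a sample. The floor of 3 counts covers counting error only.

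The members and lists were chosen with earlier results of these data known. Named genes were the 10 members, every called gene of the lists, in a list with none the 2 with the smallest adjusted p, and the 5 nearest to Tlr4 (pseudocount 0.1). Outside this rule, Tlr5, Tlr8, Tlr11, Tlr12, Ticam2, Cd36, Unc93b1, Socs1, Tnip1, Irf1, Saa3, Tnf and Il1b were named after their values were seen, and so were the fits of some of them without IPRN 3, with DESeq2 and with limma-voom. The marker lists of other cell types were macrophage and monocyte, hepatocyte, lymphocyte, endothelial (1.43 to 3.40 CPM summed) and epithelial (0.186 to 2.67 CPM), with a fibroblast list. Genes that share exons with another model, as 6184 of those tested do, have uncertain values. DESeq2 1.42.0, limma 3.58.1 and 16 alternatives in all were tried, 1 of them without DMSO 1 and IPRN 3 together, the libraries with few liver transcripts.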

Additional observations from a re-analysis of the deposited data

How the results depend on the processing

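The fold change of Tlr4 lay between 2.31 and 2.48 on the log2 scale under all 16 alternatives. For the other 9 members, 138 of 144 alternative values kept their direction and their side of the threshold, 3 passed it, all lower, and 0 were called higher. With 1 library left out, the log2 fold change of Irak1 ran from −0.0198 to 0.0692 and was negative without DMSO 2 (−0.00447), DMSO 3 (−0.0198) or IPRN 1 (−0.0140). Members called lower, 0 with edgeR, were 2 with DESeq2 and 0 to 1 with 1 library left out. Pathway genes called higher, 1 with edgeR, were 2 with library totals only, limma-voom or a mean of at least 50 counts, 7 with DESeq2, 0 without the expression filter or with limma on log2 FPKM, and 0 to 3 with 1 library left out. Pathway genes called lower, 8, became 5 without the filter and 3 to 7 with 1 library left out. Response targets called higher, 0, became 1 with DESeq2 or limma-voom, and those called lower, 10, became 6 without the filter and 5 to 8 with 1 library left out. Over all genes, the 422 higher calls became 1187 with DESeq2, 270 without the filter and 29 to 454 with 1 library left out, and the 516 lower calls became 1125 with DESeq2 and 104 to 593 with 1 library left out. Each of these extremes was reached without DMSO 1 (29 and 104) or without IPRN 1 (454 and 593). Leaving out DMSO 1 and IPRN 3 together gave 0 pathway genes higher and 1 lower, 5 targets lower, and 11 higher and 42 lower calls over all genes. With the replicate block the same counts were 0, 2, 5, 18 and 85. Deviations from the group mean correlated at −0.149, 0.0626 and −0.101 over 17159 genes for libraries with the same number, and at 0.198 for DMSO 1 with IPRN 3. Deviations within a group of 3 are tied to each other, so these values cannot show whether libraries with the same number shared a culture or a batch. The number of libraries, 3 per group, limits the precision, and Ticam2, near the floor, did not pass the expression filter. The cause of the changes with the processing was not tested.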
